A study of Homo sapiens with 4 samples.

Results

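The expression of 10 genes that supply, break down or carry serine and glycine was examined in SW480 and SW620 cells with and without knockdown of SHMT2. The genes were taken by symbol from the deposited count table. PHGDH, PSAT1 and PSPH make serine, GLDC, AMT, GCSH and DLD form the glycine cleavage system, and SLC1A4, SLC1A5 and SFXN1 carry serine, glutamine or related amino acids. All 10 symbols were among the 26364 rows of the table, and all 10 passed the filter of at least 10 counts in at least 2 libraries, which 14024 genes passed. GLDC passed it through the SW480 libraries alone. SW480, from a primary colorectal tumor, and SW620, from a lymph node metastasis, are established human cancer cell lines that share their origin. There was 1 RNA sequencing library for each of SW480 control, SW480 SHMT2 knockdown, SW620 control and SW620 SHMT2 knockdown cells. According to the methods of the study, a lentiviral hairpin against SHMT2 was switched on with doxycycline in cells selected with puromycin. The results text of the study calls the controls of this profiling control shRNA cells, its methods describe only the hairpin against SHMT2, and the labels read only control or SHMT2 knockdown. Doxycycline treatment of the control libraries is not given in the sources used here, so an effect of doxycycline itself and an effect of the knockdown cannot be told apart here.

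Serine is made from the glycolytic intermediate 3-phosphoglycerate by PHGDH, PSAT1 and PSPH in turn. SHMT2, the mitochondrial serine hydroxymethyltransferase, splits serine into glycine and a one-carbon unit bound to folate. The glycine cleavage system, also in mitochondria, breaks glycine down and yields another folate-bound one-carbon unit. Serine is brought into the cell by neutral amino acid carriers and into mitochondria by SFXN1, so these genes lie directly upstream and downstream of the reaction that SHMT2 carries out.

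The libraries held 5530129 to 13774288 counts. SHMT2, the target, was at 277 CPM in SW480 control, 30.9 in SW480 knockdown, 688 in SW620 control and 47.6 in SW620 knockdown cells, where CPM is the read count relative to the TMM-scaled depth of its library. The knockdown therefore left 11.2% of the control level in SW480 and 6.92% in SW620. Among 11 markers of colorectal epithelium, the epithelial genes EPCAM, CDH1, KRT8 and KRT18 were at 99.8 CPM or more in every library. VIL1 was at 372 CPM or more in SW620 and at 0.208 or less in SW480, CDX1 had 0 counts in every library, CDX2 was at 9.90 to 20.8 CPM, and KRT20, CDH17, LGALS4 and GPA33 were at 2.38 CPM or less. The 9 markers of leukocytes, endothelium, fibroblasts and hepatocytes summed to 11.9 to 33.4 CPM, against 4259 to 9827 for the epithelial list, and most of that sum was COL1A1 and CD68.

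Both comparisons of the design were made across all 14024 genes by the quasi-likelihood test of edgeR, in 1 model holding the cell line and the treatment. The first compared SHMT2 knockdown with control over both lines, and the second compared SW620 with SW480 over both treatments. P values were adjusted by the Benjamini-Hochberg method over all genes tested, and a gene was called at an adjusted p under 0.05. The 4 libraries leave 1 residual degree of freedom, so the p-values rest on a spread shared by all genes. That degree of freedom is the difference in knockdown response between the lines, which also holds any spread between libraries. Within a line there was 1 library per condition, and the 95% intervals given there cover counting error only. In bulk RNA, a change in the share of cells that express a gene and a change in RNA per cell cannot be told apart.

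**Figure D1:**
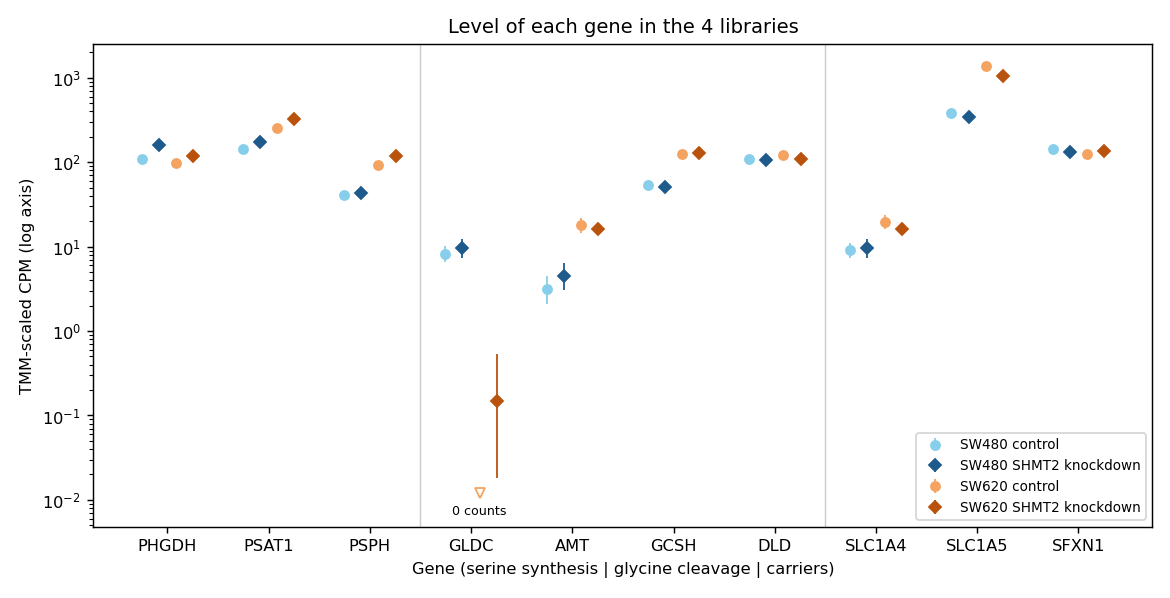
TMM-scaled CPM on a log axis for the 10 genes in the 4 libraries, with exact Poisson 95% intervals that cover counting error only; the open triangle marks a library with 0 counts and is placed below the scale. SLC1A5 is the highest in every library, GLDC falls from 8.23 and 9.65 CPM in SW480 to 0 and 0.149 in SW620, and DLD and SFXN1 lie level across the libraries.

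PHGDH was the only one of the 10 genes called after SHMT2 knockdown, and the change was a modest rise. PHGDH, 3-phosphoglycerate dehydrogenase, catalyzes the first step of serine synthesis. It was at 108 CPM in SW480 control, 161 in SW480 knockdown, 97.4 in SW620 control and 118 in SW620 knockdown cells. Both knockdown libraries were above the controls, and the lower knockdown value, in SW620, exceeded the higher control value, in SW480. The log2 change over both lines was 0.43 with a standard error of 0.12 (edgeR, adjusted p = 0.0333), or 1.34-fold. Within SW480 the log2 ratio was 0.57 with an interval of 0.45 to 0.70, and within SW620 it was 0.27 with an interval of 0.13 to 0.42. The call depended on the fit: under 6 other fits the adjusted p was 0.130 to 1.00, above the limit in each of them. The log2 change was 0.41 to 0.44 in those fits, which draw on the same counts and so do not test its size. The ratio in SW480 minus that in SW620 was 0.30, with an interval of 0.11 to 0.48 that covers counting error only. PHGDH is also in the list of changed genes that the study drew from these same libraries, so its place here is not independent evidence. Across all genes, 1.66% were called after knockdown, 0.492% as higher and 1.17% as lower, and the 10 genes had 1 call higher and 0 lower.

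The promoter of PHGDH is shown because PHGDH was the gene called after knockdown. GENCODE 29 (GRCh38) gives the gene bases 119648411 to 119744226 of chromosome 1, plus strand. The RefSeq window covers 250 bases before to 50 after a transcription start within that span, at chr1:119711684-119711983 (GRCh38.p14, plus strand). It holds 15 CpG dinucleotides, written in capitals, against a median of 14 over the 35116 promoter windows of the table.
PHGDH promoter: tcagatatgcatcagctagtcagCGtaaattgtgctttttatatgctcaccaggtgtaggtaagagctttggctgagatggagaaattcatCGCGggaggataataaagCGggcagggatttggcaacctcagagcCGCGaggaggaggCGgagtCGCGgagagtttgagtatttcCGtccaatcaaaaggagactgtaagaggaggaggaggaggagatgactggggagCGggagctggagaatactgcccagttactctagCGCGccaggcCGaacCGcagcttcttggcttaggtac

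PSAT1 and PSPH also had higher values in both knockdown libraries than in their own controls, without passing the adjusted limit. PSAT1, phosphoserine aminotransferase, catalyzes the second step and takes its amino group from glutamate. It was at 145 CPM in SW480 control, 173 in SW480 knockdown, 252 in SW620 control and 326 in SW620 knockdown cells. Its log2 change was 0.32 with a standard error of 0.11 (edgeR, adjusted p = 0.151), with 0.26 in SW480 and 0.37 in SW620. PSAT1 passed an unadjusted limit of 0.05, as did PHGDH, and 4.15% of all genes passed that limit as higher. The changed genes listed by the study include PHGDH and not PSAT1. Whether the p-values behind that list were adjusted is not stated there.

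PSPH, phosphoserine phosphatase, releases free serine in the last step. It was at 41.2 CPM in SW480 control, 43.4 in SW480 knockdown, 93.9 in SW620 control and 118 in SW620 knockdown cells. The libraries separated by line and not by treatment. Its log2 change after knockdown was 0.22 with a standard error of 0.13 (edgeR, adjusted p = 0.706). The ratio was 0.07 in SW480, with an interval of -0.15 to 0.30, and 0.33 in SW620, with an interval of 0.19 to 0.48.

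All of the serine synthesis genes were called between the lines, and not in one direction. Over all genes tested, 32.3% were called as higher in SW620 and 31.3% as lower. PSAT1 was higher in SW620 by 0.86 on the log2 scale (standard error 0.11, edgeR adjusted p = 1.55e-13), or 1.81-fold. PSPH was higher in SW620 by 1.32 (standard error 0.13, adjusted p = 6.89e-22), or 2.49-fold. PHGDH was lower in SW620, with a log2 difference of -0.31 (standard error 0.12, adjusted p = 0.0191). That call for PHGDH was lost without a term for the treatment (adjusted p = 0.156) and with DESeq2 (adjusted p = 0.143). Among the control libraries PHGDH differed by -0.15, with an interval of -0.31 to -0.0012, and among the knockdown libraries by -0.45, with an interval of -0.56 to -0.34. These intervals cover counting error only and no spread between libraries.

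Levels of different genes were compared as CPM per kilobase of annotated exon. In SW480 control cells PSAT1 was at 66.0 CPM per kilobase, PHGDH at 40.7 and PSPH at 18.9. In SW620 control cells PSAT1 was at 115, PSPH at 43.1 and PHGDH at 36.6. PSAT1 was thus the highest of the pathway in each of those libraries, while PHGDH was 2.15 times PSPH in SW480 control and 0.849 times PSPH in SW620 control cells. In SW620 control cells the counting intervals of PSPH (39.4 to 47.0) and PHGDH (33.5 to 39.8) overlapped, and in SW620 knockdown cells they did not. The knockdown libraries had the same order within each line, with PHGDH at 3.03 times PSPH in SW480 and 0.814 times in SW620.

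The largest difference among the 10 genes was that of GLDC between the lines. GLDC, glycine decarboxylase or P protein, is the subunit that removes the carboxyl group of glycine. It had 79 counts in SW480 control and 64 in SW480 knockdown cells, or 8.23 and 9.65 CPM. It had 0 counts in SW620 control and 2 in SW620 knockdown cells, and the exact interval of the count of 0 reaches 0.676 CPM. Summed over the treatments, 143 counts in SW480 and 2 in SW620 gave a level 83.3 times as high in SW480, with an exact interval of 22.6 to 694. Between the control libraries the exact interval of the log2 difference had its upper end at -3.57. These exact intervals cover counting error only and no spread between libraries. The fitted log2 difference was -6.29 (standard error 0.61, edgeR adjusted p = 1.64e-23), a size that depends on the prior count since 1 library is at 0, and GLDC entered the test through the SW480 libraries alone.

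The promoter of GLDC is shown because GLDC was nearly undetected in 1 of the lines. The gene lies on the minus strand of chromosome 9 from 6532464 to 6645783 (GENCODE 29, GRCh38), and the window is chr9:6645680-6645979 (GRCh38.p14, minus strand). It holds 22 CpG dinucleotides, in capitals, more than in 62.3% of all windows, and 69.0% of its bases are G or C.
GLDC promoter: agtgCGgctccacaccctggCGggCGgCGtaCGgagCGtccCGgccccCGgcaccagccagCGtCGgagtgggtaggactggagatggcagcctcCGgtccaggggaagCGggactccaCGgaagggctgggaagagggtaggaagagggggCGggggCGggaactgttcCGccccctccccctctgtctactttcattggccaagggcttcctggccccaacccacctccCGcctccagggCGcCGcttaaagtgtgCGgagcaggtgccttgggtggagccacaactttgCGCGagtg

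AMT and GCSH differed between the lines in the opposite direction to GLDC. AMT, the aminomethyltransferase or T protein, passes the one-carbon unit of glycine to folate. It was at 3.12 CPM in SW480 control, 4.52 in SW480 knockdown, 18.0 in SW620 control and 16.2 in SW620 knockdown cells, so both SW620 libraries were above both SW480 libraries. Its log2 difference was 2.17 (standard error 0.27, edgeR adjusted p = 1.65e-14), or 4.51-fold. The AMT value rests on 30 counts in each SW480 library. GENCODE 29 places a readthrough gene, AC104452.1, over AMT on the same strand, and it shares 52.9% of the 50-base stretches of AMT transcripts, so counts of the 2 genes may be split or merged.

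GCSH, the H protein, carries the reaction intermediate on a lipoyl arm between the other subunits. It was at 53.2 CPM in SW480 control, 50.7 in SW480 knockdown, 125 in SW620 control and 129 in SW620 knockdown cells. It was higher in SW620 by 1.29 on the log2 scale (standard error 0.13, edgeR adjusted p = 2.32e-22), or 2.45-fold. The processed copy GCSHP3 has a row of its own with 29 to 65 counts, at most 10.1% of the GCSH count in the same library, and another copy, GCSHP5, shares 10.4% of the 50-base stretches of GCSH transcripts. The annotated genes AC092718.3 and AC092718.8, on the same strand with exons that overlap those of GCSH, share 9.77% and 9.40% of these stretches, so their counts may also be split or merged.

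DLD, dihydrolipoamide dehydrogenase or L protein, reoxidizes the lipoyl arm and also serves the pyruvate, 2-oxoglutarate and branched-chain 2-oxoacid dehydrogenases. It was at 110 CPM in SW480 control, 108 in SW480 knockdown, 120 in SW620 control and 110 in SW620 knockdown cells. The treatments overlapped, while both SW620 libraries were above both SW480 libraries by a small margin, since the unrounded value of SW620 knockdown was the higher of the values near 110 CPM. The log2 difference between the lines was 0.08, with a 95% interval of -0.16 to 0.32 (edgeR, adjusted p = 0.569).

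The RNAs of the glycine cleavage subunits were therefore at unequal levels, while their proteins were not measured in these data. Per kilobase, DLD was at 29.2 CPM in SW480 control, GCSH at 17.2, GLDC at 1.80 and AMT at 1.37, and the counting intervals of GLDC and AMT overlapped. In SW620 control GCSH was at 40.5, DLD at 32.0, AMT at 7.88 and GLDC at 0. DLD was 16.2 times GLDC in SW480 control and 899 times GLDC in SW620 knockdown cells, where GLDC rests on 2 counts. GCSH was 0.589 times DLD in SW480 control and 1.26 times DLD in SW620 control cells.

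No subunit of the glycine cleavage system was called after SHMT2 knockdown, where 1.66% of all genes tested were called. The log2 changes were 0.28 for GLDC, 0.07 for AMT, -0.01 for GCSH and -0.08 for DLD, and the adjusted p values from edgeR were 0.968 to 0.998. The 95% intervals were -0.26 to 0.24 for GCSH and -0.32 to 0.16 for DLD. For AMT the interval was -0.45 to 0.59 and for GLDC it was -0.53 to 1.09, so changes of a size seen for PHGDH were not detectable for these 2 genes at this depth. AMT had the same 30 counts in both SW480 libraries, and its ratio was 0.50 in SW480 and -0.15 in SW620.

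**Figure D2:**
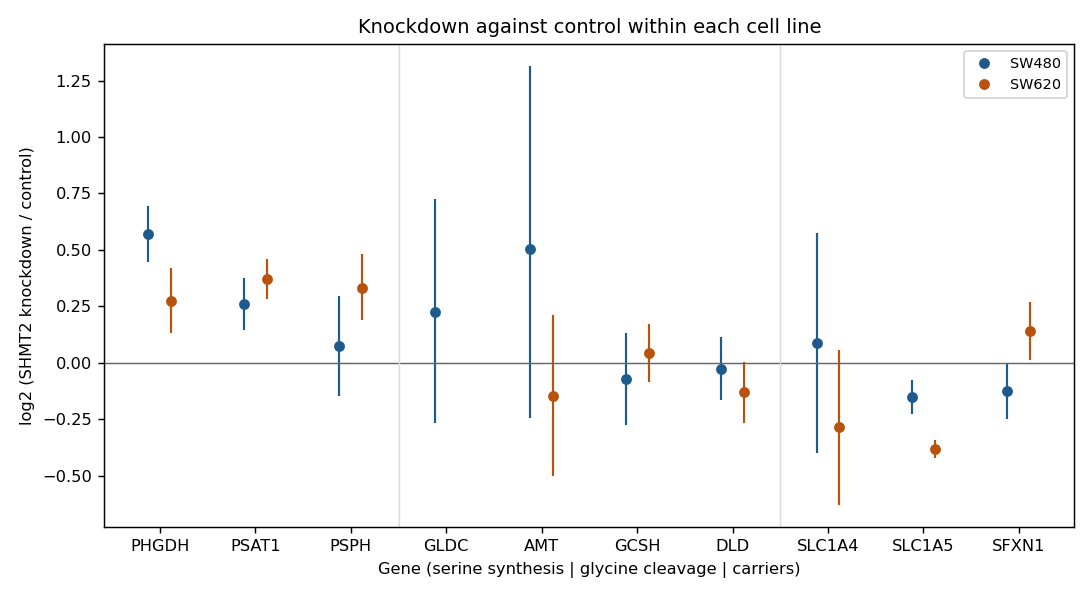
Log2 ratio of SHMT2 knockdown to control within each line (1 library per condition, prior count 2), with exact 95% intervals that cover counting error only; GLDC in SW620, with 0 and 2 counts, is not drawn. PHGDH and PSAT1 lie above 0 and SLC1A5 below 0 in both lines with their whole intervals, and the intervals of AMT, GCSH, DLD and SLC1A4 include 0 in both.

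SLC1A5 was the most abundant of the 10 genes and differed strongly between the lines. SLC1A5, also called ASCT2, exchanges glutamine, serine and other neutral amino acids across the plasma membrane. It was at 384 CPM in SW480 control, 346 in SW480 knockdown, 1374 in SW620 control and 1056 in SW620 knockdown cells. Both SW620 libraries were above both SW480 libraries, and the log2 difference was 1.72 (standard error 0.10, edgeR adjusted p = 6.52e-67), or 3.30-fold. After knockdown its log2 change was -0.27 with a standard error of 0.10 (adjusted p = 0.163), with -0.15 in SW480 and -0.38 in SW620. SLC1A5 passed the unadjusted limit as lower, as 4.91% of all genes did. An annotated antisense gene, AC008622.2, shares 21.3% of the 50-base stretches of SLC1A5 transcripts, and without a stated use of strand its reads could not be separated.

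SLC1A4, or ASCT1, carries serine, alanine and cysteine and was far less abundant than SLC1A5. It was at 9.06 CPM in SW480 control, 9.65 in SW480 knockdown, 19.8 in SW620 control and 16.2 in SW620 knockdown cells. The log2 difference between the lines was 0.94 (standard error 0.23, edgeR adjusted p = 9.02e-05), or 1.91-fold, and the call was lost with DESeq2 (adjusted p = 0.0815). After knockdown the log2 change was -0.13, with a 95% interval of -0.57 to 0.32 (adjusted p = 0.975). Per kilobase, SLC1A5 was 59.7 times SLC1A4 in SW480 control and 97.7 times in SW620 control cells.

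SFXN1, the mitochondrial serine carrier, lay level across the libraries. It was at 143 CPM in SW480 control, 132 in SW480 knockdown, 124 in SW620 control and 137 in SW620 knockdown cells. The treatments and the lines overlapped. The log2 difference between the lines was -0.07, with a 95% interval of -0.30 to 0.16 (edgeR, adjusted p = 0.616). The log2 change after knockdown was 0.01, with an interval of -0.22 to 0.24 (adjusted p = 0.998).

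Motifs were searched on both strands in the 13 RefSeq promoter windows that the table gives for 9 of the 10 genes. One was TGATGNAA, the shared core of the elements bound by CEBP and ATF factors in the amino acid response, and the other was the E-box CACGTG. The carriers SLC1A4 and SLC1A5 held the matches, and these are shown with the motif in capitals, 5′ to 3′ on the strand of the gene. The SLC1A4 match, at chr2:64989381-64989410 (GRCh38.p14, plus strand), reads TGATGNAA on the other strand. The SLC1A5 matches lie at chr19:46784893-46784922 and chr19:46787327-46787354 (minus strand), each in a different window.
SLC1A4 TGATGNAA: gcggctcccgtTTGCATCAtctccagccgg
SLC1A5 TGATGNAA: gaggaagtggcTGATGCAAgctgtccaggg
SLC1A5 CACGTG: gcgggagtggtCACGTGgacaggacggg
Over all 35116 windows, 3.62% held TGATGNAA and 7.26% held CACGTG. A match is a run of letters and not a measured binding site.

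More of the 10 genes were called between SW620 and SW480 than after knockdown, and the same held over all genes tested. After knockdown 1 of the 10 genes was called, while 1.66% of all genes were. Between the lines, 6 of the 10 genes were called as higher in SW620 and 2 as lower. Over all genes, 32.3% were called as higher and 31.3% as lower. The genes higher in SW620 were PSAT1, PSPH, AMT, GCSH, SLC1A4 and SLC1A5, and the lower ones were PHGDH and GLDC, of which GLDC had passed the filter on low counts only through SW480. The median log2 difference was 0.90 for the 10 genes and 0.01 over all genes tested. After knockdown the corresponding medians were 0.04 and 0.01. Of the 10 genes, 4 had a higher value after knockdown in both lines, 2 had a lower value in both and 4 went opposite ways, while over all genes these shares were 27.0%, 24.7% and 45.6%. The 4 were PHGDH, PSAT1, PSPH and GLDC, the last with 0 and 2 counts in SW620. The 10 genes together took 0.101% and 0.107% of the counts in SW480 control and knockdown cells, and 0.219% and 0.198% in SW620. SLC1A5 had the largest part in every library.

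**Figure D3:**
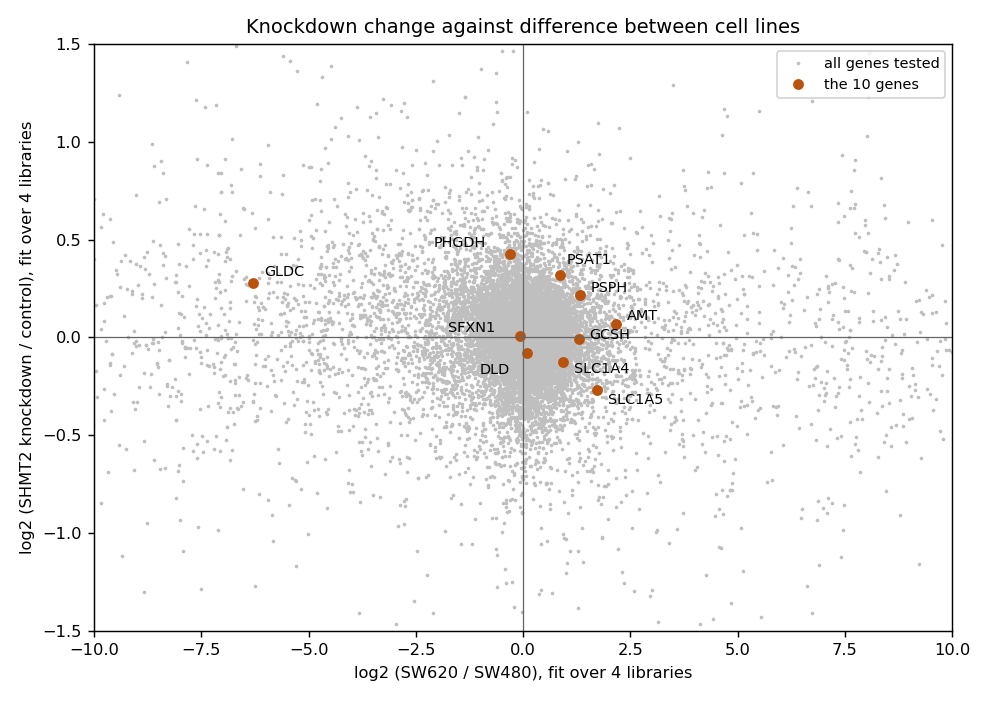
Log2 change after SHMT2 knockdown (vertical axis) against log2 difference between SW620 and SW480 (horizontal axis), both from the edgeR fit over 4 libraries, for the 14024 genes tested (grey) and the 10 genes (orange); 110 genes lie outside the axes. The 10 genes spread from -6.29 to 2.17 between the lines and from -0.27 to 0.43 after knockdown.

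Genes next to these in the pathway were counted from 6 lists. For each list, the shares over all genes tested were 0.492% called as higher and 1.17% as lower after knockdown. Between the lines these shares were 32.3% higher in SW620 and 31.3% lower. Of 18 tested among 29 SHMT isozymes and enzymes that make or use serine and glycine, 0 rose and 2 fell after knockdown, SHMT2 itself and CHDH. CHDH, choline dehydrogenase, makes betaine aldehyde from choline, a route that ends in glycine. It was at 21.1 CPM in SW480 control, 17.2 in SW480 knockdown, 61.8 in SW620 control and 35.5 in SW620 knockdown cells, a log2 change of -0.59 (standard error 0.16, edgeR adjusted p = 0.0140). The ratio was -0.29 in SW480 and -0.79 in SW620. Of the 5 other fits with a result for CHDH, 4 lost the call, with adjusted p values of 0.0817 to 1.00. The call was kept with no filter on low counts (edgeR, adjusted p = 0.0188). Between the lines 8 of the 18 were higher in SW620 and 7 lower, and the largest difference was that of CBS. CBS, cystathionine beta-synthase, joins serine to homocysteine, and it had 1 count in each SW480 library against 269 and 889 counts in the SW620 control and knockdown libraries. CBS passed the filter on low counts through SW620 alone, so its line difference is not independent of the filter.

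Among 11 partners of DLD in the 2-oxoacid dehydrogenase complexes, 0 rose and 1 fell after knockdown. It was OGDH, the first enzyme of the 2-oxoglutarate dehydrogenase complex, at 175 CPM in SW480 control, 120 in SW480 knockdown, 184 in SW620 control and 130 in SW620 knockdown cells. Its log2 change was -0.52 (standard error 0.12, edgeR adjusted p = 0.00190), and both knockdown values were below both control values. The call was lost with DESeq2's size factors (adjusted p = 0.0554), with the DESeq2 Wald test (0.0550) and without the line term (1.00). Between the lines 5 of the 11 were higher in SW620 and 1 was lower. The lower one, OGDHL, an OGDH homolog, had a log2 difference of -2.82 (adjusted p = 2.22e-17). CHDH and OGDH are also in the changed genes the study drew from these libraries.

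No gene was called after knockdown in the other 4 lists. The list of carriers of serine, glycine and other neutral amino acids also held the glutamate carriers SLC1A1, SLC1A2 and SLC1A3. Of its 26 genes 18 were tested, and 8 were higher and 4 lower in SW620, with SLC1A1 and SLC1A3 among the lower ones. SLC1A3, a glutamate carrier, differed most, with 194 and 109 counts in SW480 control and knockdown cells and 0 and 1 in SW620, and it passed the filter through SW480 alone. Of the 4 other sideroflexins, 1 was higher in SW620 and 1 was lower, and the largest difference, -0.66, was that of SFXN4 (adjusted p = 8.61e-05), a call lost with DESeq2 (adjusted p = 0.0647). Of 8 tested among 9 glycolytic enzymes around 3-phosphoglycerate, the substrate of PHGDH, 2 were higher and 1 lower, and the log2 difference of ENO3, the muscle-type enolase, was 2.32 (adjusted p = 4.15e-27). The 3 genes of lipoate synthesis and attachment, which supply the arm of GCSH, had no call between the lines.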

How the data were processed

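Illumina TruSeq libraries of total RNA were sequenced, 1 for each line and condition. The authors deposited 1 table of read counts per gene symbol, without normalization. The submitters' processing notes name Bowtie 0.12.2 and the build hg18, without their role; how reads were counted, with which annotation and whether by strand is not given in the sources used here. The methods of the study name an Agilent microarray, while the deposited values are whole-number counts. In 28 rows, with 0.217% of the counts, a date stood in place of a symbol.

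TMM scaling and the quasi-likelihood fit on cell line and treatment were run in edgeR 4.0.16 (R 4.3.3) on the genes that reached 10 counts in 2 or more libraries. The prior degrees of freedom were infinite, with a common dispersion of 0.00819 (0.561 without the line term). All tests were two-sided. The knockdown and the control of a line come from the same line, which pairs them. The spread behind the p-values is the difference in knockdown response between the lines, from which spread between libraries cannot be separated. Nothing states that libraries came from separate cultures, so the p-values need not cover spread between cultures. Standard errors and intervals of the fit used the normal approximation. A prior count of 2 was added for the ratios of 2 libraries. Intervals of ratios were Clopper-Pearson, and those of levels were Poisson, and both cover counting error only. Lengths, positions and overlaps came from GENCODE 29 on GRCh38, and promoters came from RefSeq on GRCh38.p14, which need not be the authors' annotation. Lengths were the union of annotated exons.

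The genes named are the 10 members, SHMT2, each gene of the 6 context lists called after knockdown and, from each list, the gene with the largest difference called between the lines. The members and the lists were chosen with earlier results of these data known. Alternatives were another scaling, DESeq2 1.42.0, other filters, thinning to the smallest total, 1 term fewer, the unadjusted limit, another gene length, no prior count, and each line or treatment left out.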

Additional observations from a re-analysis of the deposited data

Results flagged for a closer look

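The response to knockdown had opposite signs in the lines for 4 of the 10 genes, and the difference was not tested, since each line has 1 library per condition. The log2 ratio in SW480 minus that in SW620 was 0.65 for AMT, -0.11 for GCSH, 0.38 for SLC1A4 and -0.26 for SFXN1. By counting error alone, the 95% interval of this difference excluded 0 for SFXN1, at -0.44 to -0.09, and included 0 for AMT (-0.13 to 1.44), GCSH (-0.35 to 0.12) and SLC1A4 (-0.19 to 0.94). Among the genes with the same sign in both lines, the interval excluded 0 for PHGDH and SLC1A5. The difference was 0.30 (0.11 to 0.48) for PHGDH and 0.23 (0.14 to 0.31) for SLC1A5. The interval included 0 for PSAT1, PSPH, GLDC and DLD. Over all genes tested, 45.6% had opposite signs in the lines.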

How the results depend on the processing

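In the knockdown comparison, where 69 genes were higher and 164 lower, the numbers depended on the fit. They were 0 and 0 without a term for the cell line (18 genes at an unadjusted p under 0.05), that is, without the pairing by line, 19 and 59 with the size factors of DESeq2, 6 and 22 with the DESeq2 Wald test, 15 and 54 when genes needed 50 counts in 2 libraries, and 19 and 61 after thinning to the smallest total. In each of those fits, and with no filter on low counts, 0 of the 10 genes were higher. At the unadjusted limit the numbers were 582 and 688, with 2 of the 10 genes higher and 1 lower. PHGDH had an adjusted p of 1.00 without the line term, 0.165 with DESeq2's size factors, 0.495 with the Wald test, 0.130 with no filter, 0.169 with the filter of 50 and 0.168 after thinning. DESeq2 gave an adjusted p for 5 of the 10 genes. Between the lines, 4532 genes were higher in SW620 and 4394 lower, against 2680 and 2826 with DESeq2, and 1 of the 10 genes was lower in place of 2 with DESeq2 and without the treatment term. PHGDH lost its line call in both of those fits and SLC1A4 with DESeq2, and the other 8 genes kept their line result in each fit. With 1 line left out, AMT, GCSH, SLC1A4 and SFXN1 changed sign, and so did the line difference of SFXN1 with the controls left out, at 0.06. With the longest transcript as the length, GCSH went from place 7 to place 4 in the mean order of levels per kilobase, and PSPH, SFXN1 and DLD each went 1 place down. Where counts were low the precision was less: the standard error after knockdown was 0.23 to 0.41 for SLC1A4, AMT and GLDC and 0.10 to 0.13 for the other 7 genes.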
